A study of Homo sapiens with 30 samples.

Results

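The 8 HepG2 libraries treated with the lowest dose of an extract were compared with the 3 vehicle libraries of the same series. The low-dose libraries were chosen by their labels alone, and they were 8 of 30 libraries in all. Palmul-tang low and Sibjeondaebo-tang low had 3 libraries each, and Samul-tang low had 2 (replicates 2 and 3). Each of these groups was HepG2 given 20 µg/mL of the ethanol extract of the named formula for 24 h, and the vehicle group was HepG2 given 0.1% DMSO for 24 h. The series design text gives the vehicle as 2% DMSO instead, and the labels of the extract groups give no DMSO share. HepG2 is an established human liver tumour line, so all groups share the genome of 1 tumour. The same formulas were also given at 100 µg/mL (medium) and 500 µg/mL (high), and those libraries entered the fit but are described only beside a low-dose value. A single Sagunja-tang low library was not a member of the pooled group.

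Palmul-tang, Sibjeondaebo-tang and Samul-tang are mixtures of medicinal plants used in Korean medicine as tonics. In traditional use Palmul-tang contains the herbs of Samul-tang, and Sibjeondaebo-tang contains those of Palmul-tang. Hepatocytes meet plant compounds with xenobiotic enzymes such as CYP1A1, with antioxidant genes under the factor NRF2, and, where proteins unfold, with chaperones of the cytosol and of the endoplasmic reticulum (ER). Fast-growing hepatoma cells also keep high transcript levels of secreted plasma proteins, glycolytic enzymes and cell-cycle genes, which can move with culture conditions as well as with a compound.

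The vehicle libraries carry the sample prefix E1, the Samul-tang libraries 14, and the Palmul-tang and Sibjeondaebo-tang libraries 15. The titles name 1 batch for all of them, and no label explains the prefixes. No extract library carries the vehicle prefix. Extract and library set therefore cannot be told apart in any comparison with vehicle given here. Depth was 22140866 to 36105648 expected counts in the low-dose libraries and 25715748 to 33674933 in the vehicle libraries. No label says whether replicates came from separate cultures, and the p-values may therefore reflect technical spread alone. Summed hepatocyte and HepG2 markers were at 69350 to 71810 CPM (depth-scaled counts, with TMM library factors) in low-dose libraries and at 62770 to 64730 CPM in vehicle libraries, and all 13 of these markers were measured.

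In all low doses against vehicle, 4783 of 16083 tested genes (29.7%) passed a Benjamini-Hochberg adjusted p of 0.05 in edgeR's quasi-likelihood test. Of these, 2356 were higher (14.6% of tested genes) and 2427 were lower (15.1%). Most differences were small, with a median absolute log2 fold change of 0.24 among called genes. A log2 fold change of at least 0.5 was reached by 226 higher (1.41%) and 303 lower genes (1.88%), and one of at least 1 by 47 higher (0.292%) and 85 lower genes (0.529%). The 8 low-dose libraries lay wholly on one side of the 3 vehicle libraries for 3927 genes (24.4%), 3474 of them also called. Without vehicle replicate 2, the count for all low doses against vehicle was 3158 genes.

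**Figure D1:**
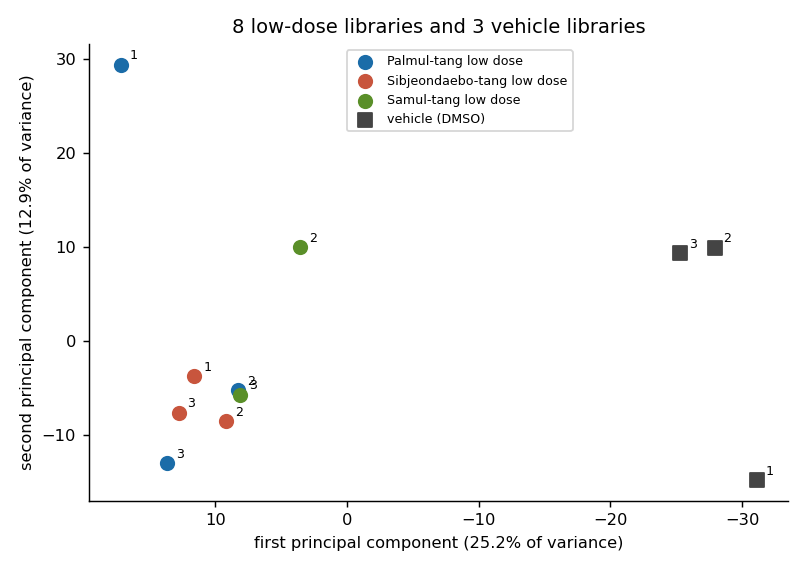
First and second principal component of log2 CPM in the 11 libraries, with 1 point per library and its replicate number beside it. The x axis is inverted so that low-dose libraries (circles, 3.54 to 17.2) stand left of vehicle libraries (squares, -31.1 to -25.3), and Palmul-tang low replicate 1 stands apart at 29.4 on the second component.

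The first principal component held 25.2% of the variance and separated the low-dose libraries, at 3.54 to 17.2, from the vehicle libraries, at -31.1 to -25.3. The second held 12.9%, and its far point was Palmul-tang low replicate 1 at 29.4. Removing that library together with Sibjeondaebo-tang low replicate 3, a choice made after seeing the data, left 4175 called genes in all low doses against vehicle.

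By formula, Palmul-tang low against vehicle gave 3727 called genes (23.2%), 1844 higher and 1883 lower. Sibjeondaebo-tang low against vehicle gave 3696 (23.0%), 1852 higher and 1844 lower. Samul-tang low against vehicle, with 2 extract libraries, gave 1811 (11.3%), 1041 higher and 770 lower. These 3 comparisons share the vehicle libraries, so their likeness is not evidence of its own. Without vehicle replicate 2, the counts were 2392 for Palmul-tang low against vehicle, 2284 for Sibjeondaebo-tang low against vehicle and 1047 for Samul-tang low against vehicle. The Samul-tang count was also 693 without Samul-tang low replicate 2 and 604 without replicate 3.

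Among well-expressed genes with a symbol and separated groups, PFKFB3 had the largest rise. PFKFB3, which makes the activator of the glycolytic enzyme phosphofructokinase, lay at 4.4 to 7.43 CPM in low-dose libraries with a median of 5.37, against 2.24, 2.68 and 2.23 CPM in vehicle libraries. Its lowest low-dose library was above every vehicle library, and the log2 fold change was 1.2 ± 0.205 (SE; edgeR adjusted p = 0.000202). PPP2R2C, a regulatory subunit of a serine/threonine phosphatase, lay at 5.94 to 8.13 CPM with a median of 6.61 in low-dose libraries, against 3.41, 3.10 and 3.98 CPM in vehicle libraries (0.97 ± 0.106; edgeR adjusted p = 1.04e-07). TMCC1, an ER membrane protein (chromosome 3, 129647792 to 129893606, minus strand, GRCh38), lay at 46.0 to 61.6 CPM with a median of 51.2 in low-dose libraries, against 27.1, 27.6 and 27.6 CPM in vehicle libraries. The 3 vehicle values of TMCC1 were nearly the same, no low-dose library came near them, and the log2 fold change was 0.92 ± 0.0586 (edgeR adjusted p = 1.33e-12).

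Several regulators of signalling and transcription rose with them. CEBPB, a transcription factor of the acute-phase response, lay at 33.5 to 40.6 CPM in low-dose libraries, against 17.2, 21.6 and 24.4 CPM in vehicle libraries (log2 fold change 0.83 ± 0.0743). SOCS1, an inhibitor of cytokine receptor signalling, rose by 0.80 on the log2 scale, HES4, a repressor of the Notch-responsive HES family, by 0.79, and FILIP1L, related to a filamin-binding protein, by 0.86. The pseudogenes HNRNPA3P6 (0.90) and ACSL3P1 (0.77) were also called, but their reads can be shared with the parent genes HNRNPA3 and ACSL3, so their values are uncertain.

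The lower side of the same rule was led by RN7SL2 and RN7SL1, described further on, and the ribosomal pseudogene RPL7AP6 (-1.21 ± 0.181), whose reads can be shared with its parent gene. ZNF850, a zinc finger protein, lay at 2.77 to 4.37 CPM in low-dose libraries, against 5.94, 6.25 and 7.59 CPM in vehicle libraries, a log2 fold change of -0.90 ± 0.107 (edgeR adjusted p = 3.80e-07). PPARGC1B, a coactivator of mitochondrial gene programs, lay at 3.42 to 4.13 CPM, against 5.87, 6.99 and 6.78 CPM in vehicle libraries (-0.79 ± 0.104). SLC2A4, the insulin-responsive glucose transporter, lay at 7.27 to 8.45 CPM, against 13.3, 12.9 and 12.3 CPM in vehicle libraries (-0.71 ± 0.0657; edgeR adjusted p = 4.42e-09). For these genes the groups did not overlap. The transcription regulators FOXK1 (-0.69 ± 0.0889) and TBL1XR1 (-0.68 ± 0.0695), the phosphatase PTP4A3 (-0.71 ± 0.0763), the vesicle protein SFT2D2 (-0.78 ± 0.0943), IRGQ (-0.70 ± 0.095) and the lipid diesterase GPCPD1 (-0.66 ± 0.0721) also fell.

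**Figure D2:**
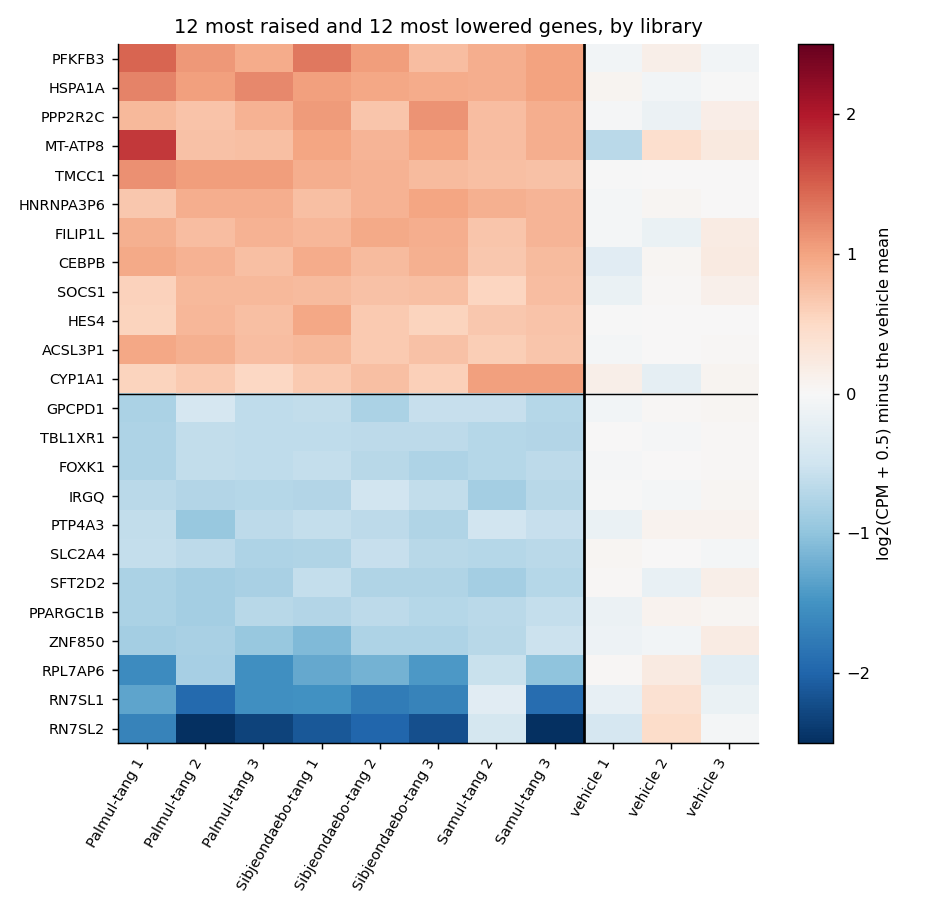
Difference of log2(CPM + 0.5) from the vehicle mean, by colour, for the 12 most raised and 12 most lowered genes of the naming rule (rows) in each of 11 libraries (columns, low-dose left of the black line and vehicle right of it). RN7SL1 and RN7SL2 are pale in Samul-tang low replicate 2, and MT-ATP8 is darkest in Palmul-tang low replicate 1, at 1788 CPM.

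Many cytosolic chaperones rose. Of 22 heat shock list members tested, 13 were higher and 0 lower, against 14.6% and 15.1% of all tested genes, and their median log2 fold change was 0.18, against -0.00786 over all tested genes. Across all the processing alternatives the number higher ran from 11 to 14. The strongest was HSPA1A, the inducible cytosolic HSP70, at 109 to 138 CPM with a median of 118 in low-dose libraries, against 61.6, 55.8 and 58.0 CPM in vehicle libraries. The groups stood far apart, and the log2 fold change was 1.04 ± 0.05 (edgeR adjusted p = 1.80e-15). HSPA1A and HSPA1B are near-identical, so the split of reads between them is uncertain. Their sum was 212.9 to 262.7 CPM in low-dose libraries, against 149.5, 131.4 and 125.9 CPM in vehicle libraries, again without overlap. The log2 ratio of the group means of this sum was 0.77, below the 1.04 of HSPA1A alone.

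HSPA8, a constitutive HSP70 of the same family, lay at 1690 to 1918 CPM with a median of 1808 in low-dose libraries, against 1196, 1070 and 1037 CPM in vehicle libraries (0.71 ± 0.0451, edgeR adjusted p = 1.33e-12). CHORDC1, a co-chaperone of HSP90, lay at 69.2 to 74.2 CPM, against 51.5, 43.5 and 50.2 CPM in vehicle libraries (0.57 ± 0.0447). DNAJB4, a J-domain co-chaperone, lay at 8.56 to 10.7 CPM, against 6.57, 5.67 and 5.73 CPM in vehicle libraries (0.66 ± 0.0786). Smaller rises were found for HSPH1, a nucleotide exchange factor of HSP70 (0.32), the co-chaperone BAG3 (0.34), DNAJA1 (0.26) and STIP1, which links HSP70 to HSP90 (0.25). HSP90AA1 rose by 0.14, while DNAJB1 (0.11, adjusted p = 0.056), HSPA4 (0.03) and the mitochondrial chaperonin HSPD1 (-0.03) did not pass edgeR's threshold.

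Promoters of these genes are shown because heat shock factor binds inverted GAA repeats. In RefSeq promoters (GRCh38.p14), the 250 bases before each start were searched for GAANNTTC, a palindrome that reads the same on both strands. It was found in 2030 of 35116 promoters (5.78%) and, by gene with any promoter counted, in 1924 of 27305 genes (7.05%). Among heat shock list genes with a promoter in the table, 13 of 21 held it (61.9%), 7 of them among the 12 called higher (58.3%). A match is a run of letters and not a shown binding site. The following stretches are given 5′ to 3′ on the gene's strand with each match in capitals.
HSPA1A, chr6:31815423-31815542 (+): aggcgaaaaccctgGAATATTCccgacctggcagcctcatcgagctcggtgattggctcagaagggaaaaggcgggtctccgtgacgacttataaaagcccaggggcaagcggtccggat
HSPA8, chr11:123062137-123062256 (-): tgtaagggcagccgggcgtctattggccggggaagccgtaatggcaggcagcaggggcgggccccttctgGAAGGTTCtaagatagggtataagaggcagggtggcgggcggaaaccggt
CHORDC1, chr11:90223050-90223169 (-): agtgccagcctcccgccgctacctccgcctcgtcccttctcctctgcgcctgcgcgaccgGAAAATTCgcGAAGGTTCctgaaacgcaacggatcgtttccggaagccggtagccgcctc
The match began 106 bases before the start in HSPA1A and 50 before it in HSPA8, while CHORDC1 held 2 matches, 60 and 50 bases before the start. DNAJB4, HSPH1, BAG3 and STIP1 rose without a match in the 250 bases searched, and DNAJB1 and HSPD1 held a match but were not called. The match was thus not particular to the genes called higher.

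Chaperones of the ER also rose. Of 19 list members, 14 were higher and 0 lower, with a median log2 fold change of 0.166, and the number higher was 12 to 15 across the alternatives. HSP90B1, the ER form of HSP90, lay at 1275 to 1376 CPM with a median of 1317 in low-dose libraries, against 1038, 1054 and 1061 CPM in vehicle libraries (0.33 ± 0.0351; edgeR adjusted p = 6.59e-08). MANF, a secreted protein of ER stress, lay at 102 to 124 CPM, against 81.2, 82.2 and 80.8 CPM in vehicle libraries (0.42 ± 0.0495). DNAJB11, an ER co-chaperone, lay at 146 to 155 CPM, against 116, 121 and 113 CPM in vehicle libraries (0.36 ± 0.0394). None of these overlapped between groups. The main ER HSP70, HSPA5, rose by 0.17 and the degradation ligase SYVN1 by 0.38, whereas PDIA4 (0.05), SDF2L1 (-0.08) and EDEM1 (-0.27, adjusted p = 0.051) were not called.

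The ER stress response element, CCAAT and CCACG separated by any 9 bases and searched on both strands, was in 26 of 35116 promoters (0.074%), by gene in 25 of 27305 genes (0.0916%), and in 7 of 18 ER list genes with a promoter in the table (38.9%), 6 of them among the 13 called higher (46.2%). HSP90B1 is printed because it held 2 matches, 194 and 89 bases before its start, the second on the opposite strand.
HSP90B1, chr12:103930190-103930409 (+): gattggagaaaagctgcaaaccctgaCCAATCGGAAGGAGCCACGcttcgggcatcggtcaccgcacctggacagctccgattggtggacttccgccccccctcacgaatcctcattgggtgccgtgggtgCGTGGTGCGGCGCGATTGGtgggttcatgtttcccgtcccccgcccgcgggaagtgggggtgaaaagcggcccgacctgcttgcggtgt

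Targets of ATF4, the factor of the integrated stress response, did not move one way. Of 21 tested, 4 were higher (19%) and 6 lower (28.6%), beside 14.6% and 15.1% of all tested genes. The number higher was 2 without vehicle replicate 3 but 8 when GC content and transcript length were offset. CEBPB (above) and STC2, a secreted glycoprotein, rose, the second by 0.31 ± 0.0447, while PSAT1, an enzyme of serine synthesis, fell by 0.25 on the log2 scale. In the serine and one-carbon list, 0 of 10 were higher and 5 lower, but only 2 were lower without vehicle replicate 2. Aminoacyl-tRNA synthetases were 5 of 20 higher and 1 lower, and 2 were higher without vehicle replicate 2.

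Glycolysis and hypoxia genes were 15 of 30 higher and 0 lower, with a median log2 fold change of 0.191, and 12 to 17 were higher across the alternatives. KDM3A, a histone demethylase, lay at 52.7 to 59.7 CPM in low-dose libraries, against 41.1, 41.8 and 40.5 CPM in vehicle libraries (0.44 ± 0.0409; edgeR adjusted p = 5.33e-09). VEGFA, the angiogenic growth factor, lay at 129 to 156 CPM, against 105, 112 and 108 CPM in vehicle libraries (0.36 ± 0.0457), and P4HA1, a collagen prolyl hydroxylase, at 129 to 148 CPM, against 106, 110 and 115 CPM (0.32 ± 0.0404). NDRG1 (0.66), BNIP3L, a mitophagy receptor (0.37), and PDK1, which restrains pyruvate entry into mitochondria (0.35), also rose. Of the pathway's enzymes, LDHA (0.18) and PKM (0.21) rose, whereas GAPDH (0.12), PGK1 (-0.12), ENO1 (-0.10) and TPI1 (-0.09) were not called.

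The DNA replication list and the mitosis list leaned in opposite directions, though not every mitosis gene rose. DNA replication and S phase genes were 0 of 27 higher and 19 lower, with a median log2 fold change of -0.176, and 16 to 20 were lower across the alternatives. E2F1, a transcription factor of S-phase entry, lay at 42.3 to 49.7 CPM with a median of 46.5 in low-dose libraries, against 56.1, 64.5 and 61.4 CPM in vehicle libraries (-0.38 ± 0.0443; edgeR adjusted p = 2.81e-07). E2F2, of the same family, lay at 11.4 to 13.1 CPM, against 17.6, 17.5 and 17.8 CPM in vehicle libraries (-0.49 ± 0.0679), and UNG, the uracil-DNA glycosylase, at 58.8 to 69.7 CPM, against 77.6, 81.2 and 76.5 CPM (-0.33 ± 0.0505). All of the helicase genes MCM2 to MCM7 on the list were lower (-0.25 to -0.12), as were the clamp PCNA (-0.25) and the licensing factor CDT1 (-0.27). TYMS (-0.03) and RRM2 (0.00), which supply nucleotides, were not called.

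Mitosis genes were 12 of 25 higher and 3 lower, with a median log2 fold change of 0.123, and 10 to 15 were higher across the alternatives. CENPE, a kinetochore motor, lay at 51.4 to 55.8 CPM in low-dose libraries, against 42.7, 39.6 and 42.0 CPM in vehicle libraries (0.37 ± 0.0479; edgeR adjusted p = 1.11e-06). ANLN, a scaffold of the cytokinetic ring, lay at 147 to 160 CPM, against 128, 120 and 125 CPM in vehicle libraries (0.29 ± 0.0369). The 3 lower members were CCNB1, the mitotic cyclin (-0.27), CDC20, an activator of the anaphase complex (-0.17), and CDK1, the kinase that CCNB1 activates (-0.14). Cell counts and cell-cycle phase were not measured, and in bulk samples fewer cells of a kind and less RNA per cell cannot be told apart.

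**Figure D3:**
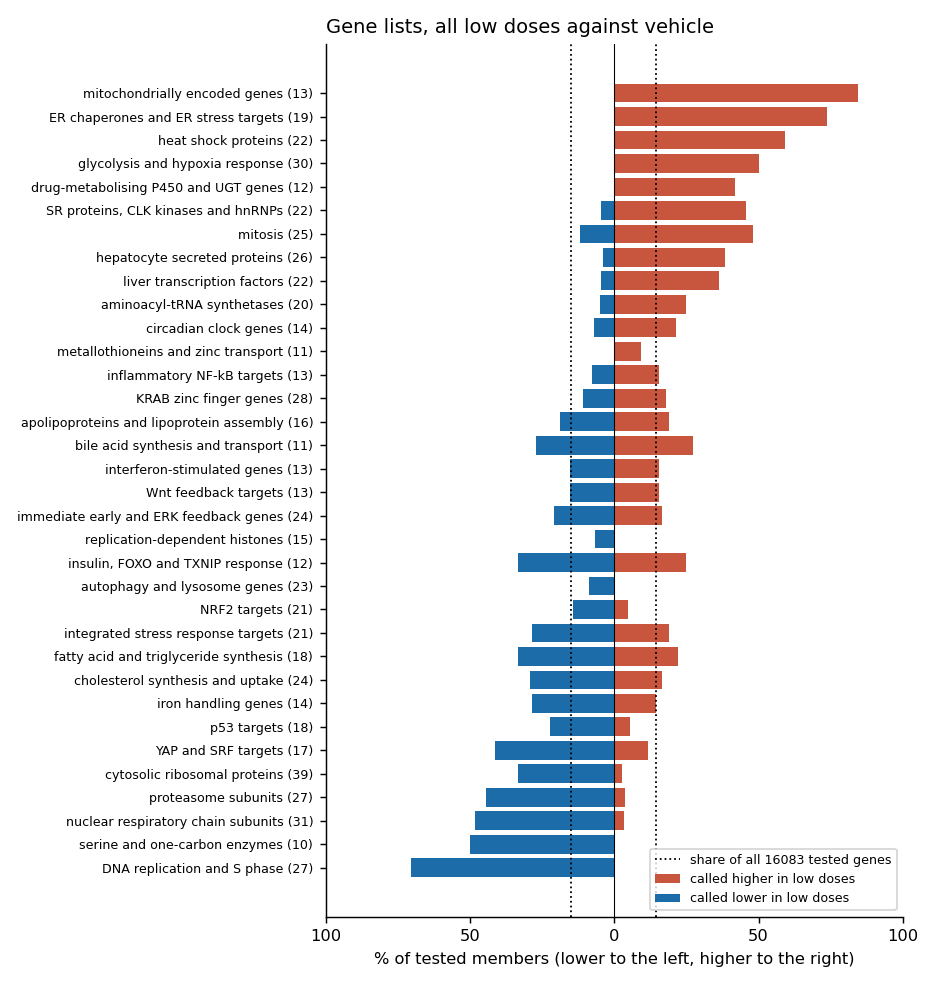
Share of tested members called higher (red, to the right) and lower (blue, to the left) in all low doses against vehicle. Each pathway list of 10 or more tested members is shown, with the number tested in brackets. The lists of RNA classes (small structural, snoRNA host and nuclear-retained RNAs) and of cell type markers are not plotted. Dotted lines mark the share of all 16083 tested genes, 14.6% higher and 15.1% lower. Heat shock, ER chaperone, glycolysis and hypoxia, mitochondrially encoded, drug-metabolising P450 and UGT, and metallothionein and zinc transport genes have no lower member.

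Splicing regulators were 10 of 22 higher and 1 lower (SRSF3, -0.24), with 8 to 11 higher across the alternatives. HNRNPH1 lay at 648 to 680 CPM in low-dose libraries, against 505, 522 and 521 CPM in vehicle libraries (0.35 ± 0.0372; edgeR adjusted p = 4.88e-08). All 4 CLK kinases, which phosphorylate SR proteins, rose (0.17 to 0.33), as did TRA2A (0.37) and SRSF10 (0.37).

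Liver genes moved selectively. Secreted plasma proteins were 10 of 26 higher and 1 lower, and 8 to 11 were higher across the alternatives. CP, the copper-carrying ferroxidase ceruloplasmin, lay at 344 to 368 CPM in low-dose libraries, against 238, 232 and 254 CPM in vehicle libraries (0.56 ± 0.0424; edgeR adjusted p = 5.12e-11). Coagulation factor F5 lay at 231 to 260 CPM, against 168, 159 and 178 CPM in vehicle libraries (0.53 ± 0.05), and complement C3 at 2762 to 3180 CPM, against 2324, 2330 and 2411 CPM (0.33 ± 0.0419). ALB, the main plasma protein, lay at 10470 to 11670 CPM, against 11150, 11310 and 11990 CPM in vehicle libraries, with overlapping groups and no call (-0.05 ± 0.042; edgeR adjusted p = 0.424).

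Liver transcription factors were 8 of 22 higher and 1 lower. NR0B2, a repressor induced by the bile acid receptor, lay at 54.8 to 65.3 CPM in low-dose libraries, against 43.6, 43.7 and 44.6 CPM in vehicle libraries (0.47 ± 0.054), and ONECUT1 at 18.4 to 22.5 CPM, against 14.8, 14.8 and 16.04 CPM (0.44 ± 0.069). CEBPA fell by 0.17 on the log2 scale, while HNF4A (0.07) was not called. Drug-metabolising P450 and UGT genes were 5 of 12 higher and 0 lower, with CYP3A5 at 7.56 to 8.41 CPM in low-dose libraries, against 5.46, 5.55 and 6.70 CPM in vehicle libraries (0.44 ± 0.0718). Without vehicle replicate 2, 3 of those 12 were higher.

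Lipid genes were mixed, beside 14.6% higher and 15.1% lower among all tested genes. In the cholesterol list 4 of 24 were higher (16.7%) and 7 lower (29.2%). In the fatty acid and triglyceride list 4 of 18 were higher (22.2%) and 6 lower (33.3%). Without vehicle replicate 2 the cholesterol counts were 2 and 4, and the fatty acid counts 2 and 3. ACSL3 and ACSL1, which activate fatty acids, moved apart. ACSL3 lay at 566 to 635 CPM in low-dose libraries, against 490, 499 and 484 CPM in vehicle libraries (0.30 ± 0.0362). ACSL1 lay at 55.5 to 62.8 CPM in low-dose libraries, against 80.7, 78.0 and 79.2 CPM in vehicle libraries (-0.43 ± 0.0544). Of apolipoprotein and lipoprotein genes, 3 of 16 were higher and 3 lower (18.8% each), near the shares of all tested genes. Without vehicle replicate 2, 1 of them was lower. Bile acid genes were 3 of 11 higher and 3 lower (27.3% each), and 1 each without vehicle replicate 2.

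Targets of the aryl hydrocarbon receptor, a sensor of xenobiotics, were 2 of 8 higher (25%) and 0 lower, beside 14.6% and 15.1% of all tested genes. On 8 members this count says little about the list, and their median log2 fold change was 0.338. CYP1A1, the dioxin-inducible P450, lay at 16.2 to 23.4 CPM with a median of 17.9 in low-dose libraries, against 12.5, 9.56 and 11.7 CPM in vehicle libraries (0.75 ± 0.0806; edgeR adjusted p = 1.78e-07). AHRR, the repressor of the same receptor, was at the edge of detection, at 0.325 to 0.604 CPM in low-dose libraries, against 0.220, 0.276 and 0.186 CPM in vehicle libraries, and these were the called members. NRF2 targets were 1 of 21 higher (4.76%), under the share of all tested genes, and 3 lower (14.3%), near that share. Their median log2 fold change was 0.00143, and 0 were higher without vehicle replicate 2. The lower members included TXNRD1, which reduces thioredoxin (-0.30 ± 0.0455), and SRXN1, which repairs peroxiredoxins (-0.24 ± 0.0339). NQO1, a quinone reductase, lay at 328 to 385 CPM in low-dose libraries, against 390, 387 and 370 CPM in vehicle libraries (-0.10 ± 0.0433; edgeR adjusted p = 0.0666), so the groups overlapped.

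The dose series placed some of these genes in different shapes. All high doses against all low doses gave 4007 called genes (24.9%), 2122 higher and 1885 lower, and this comparison shares the low-dose libraries. Means ± SD by dose are over the 8 libraries of all 3 formulas, so each SD includes differences between formulas. HSPA1A averaged 58.5 CPM in vehicle libraries, 120.8 ± 10.5 CPM at low, 115.6 ± 6.38 CPM at medium and 122.7 ± 6.47 CPM at high dose. Its high minus low log2 difference was 0.03 (edgeR adjusted p = 0.64). FILIP1L (0.05, edgeR adjusted p = 0.499) and CHORDC1 (0.01, edgeR adjusted p = 0.865) were likewise uncalled between high and low dose. HSPA8 was 0.11 higher at high dose (edgeR adjusted p = 0.00835) and DNAJB4 0.30 higher (edgeR adjusted p = 5.68e-05). CYP1A1 averaged 11.25 CPM in vehicle libraries, 18.9 ± 2.85 CPM at low, 39.9 ± 4.12 CPM at medium and 140.3 ± 38.8 CPM at high dose, a high minus low log2 difference of 2.85. By formula, Samul-tang had the highest CYP1A1 mean at low dose, 23.3 CPM. At high dose it had the lowest, 88.7 CPM, against 178 CPM in Palmul-tang and 137 CPM in Sibjeondaebo-tang. TMCC1 and PFKFB3 did both, with high minus low differences of 0.72 and 0.79 on top of their low-dose rise. In Palmul-tang, however, PFKFB3 averaged 13.05 CPM at medium and 9.70 CPM at high dose. In Sibjeondaebo-tang and Samul-tang its mean was largest at high dose. NQO1 was 0.90 higher at high than at low dose (edgeR adjusted p = 1.04e-19).

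**Figure D4:**
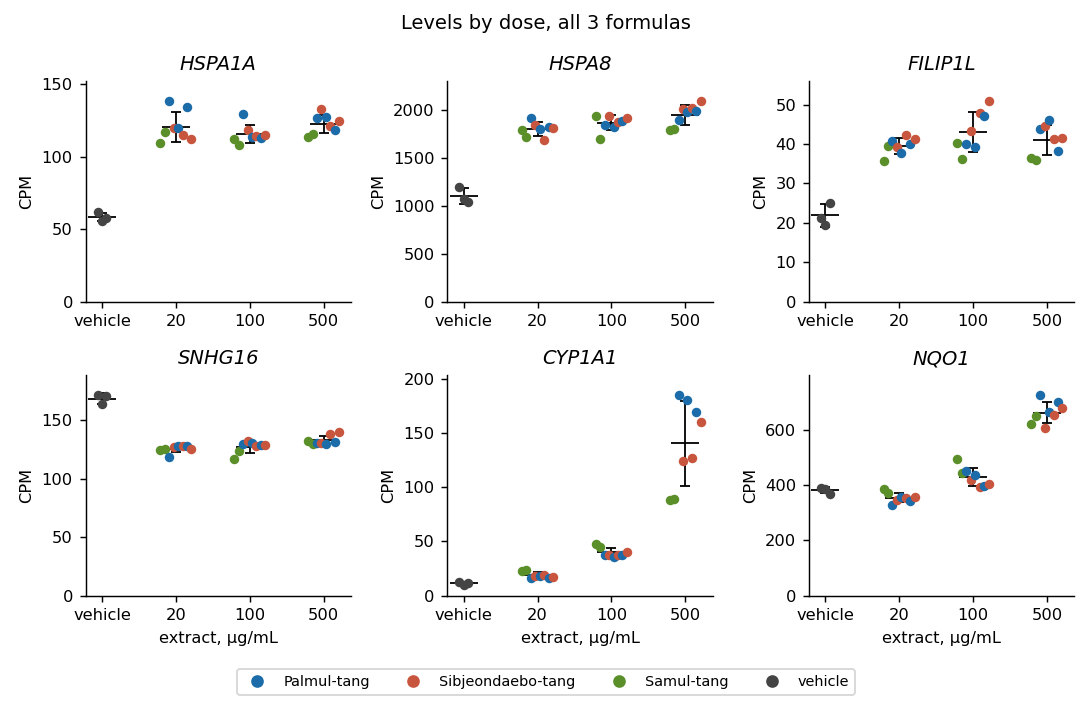
Levels in CPM from vehicle through 20, 100 and 500 µg/mL for 6 genes, with 1 point per library coloured by formula and black bars for mean ± SD. HSPA1A, HSPA8, FILIP1L and SNHG16 differ from vehicle at 20 µg/mL and then by 0.03, 0.11, 0.05 and 0.08 on the log2 scale between 500 and 20 µg/mL, whereas CYP1A1 and NQO1 climb to means of 140.3 and 663.1 CPM at 500 µg/mL.

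By gene list, the high minus low contrast called 20 of 21 NRF2 targets, 17 of 21 ATF4 targets, 20 of 20 aminoacyl-tRNA synthetases and 21 of 27 proteasome subunits higher. For the same lists, all low doses against vehicle called 1, 4, 5 and 1 members higher. Over all tested genes, the high minus low contrast called 13.2% higher and 11.7% lower. ER chaperones, near those shares, gave 2 higher and 2 lower of 19 between high and low dose, and mitosis genes 0 higher and 5 lower of 25. Heat shock genes were 10 of 22 higher and 0 lower in that contrast, and glycolysis and hypoxia genes 22 of 30 higher and 0 lower.

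The formulas were hard to separate at this dose. The F test over Palmul-tang, Sibjeondaebo-tang and Samul-tang low called 0 of 16083 genes, as did Sibjeondaebo-tang low against Palmul-tang low. By DESeq2 those counts were 2 and 0. In Sibjeondaebo-tang low against Palmul-tang low, 338 of 16083 genes had an unadjusted p under 0.05 in edgeR. That is fewer than the 0.05 share that chance alone would give, so it is no sign of a difference. Nor do 0 called genes show that the formulas act alike. Palmul-tang and Sibjeondaebo-tang low against Samul-tang low, which also compares 2 sample prefixes, gave 0 genes in edgeR and 4 in DESeq2. The smallest p of the F test belonged to BHLHE40, a clock-linked repressor, at 60.7 to 70.0 CPM in Palmul-tang low, 49.6 to 56.3 CPM in Sibjeondaebo-tang low and 47.9 to 51.7 CPM in Samul-tang low (edgeR adjusted p = 0.38). CYP1A1 was at 16.2 to 17.9 CPM in Palmul-tang low, 17.1 to 19.3 CPM in Sibjeondaebo-tang low and 23.1 to 23.4 CPM in Samul-tang low (edgeR adjusted p = 0.604), so Samul-tang lay above both other formulas but the test did not pass. The aldo-keto reductase AKR1C1 was at 257 to 264 CPM in Palmul-tang low, 264 to 296 CPM in Sibjeondaebo-tang low and 329 to 349 CPM in Samul-tang low (edgeR adjusted p = 0.55), and its reads can be shared with AKR1C2. The Sibjeondaebo-tang minus Palmul-tang log2 difference was -0.32 ± 0.069 (SE) for BHLHE40 and 0.10 ± 0.0891 for CYP1A1.

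The single Sagunja-tang low library was at 131.0 CPM for HSPA1A, 1808 CPM for HSPA8, 73.0 CPM for TMCC1, 10.7 CPM for PFKFB3 and 278.6 CPM for MALAT1. The TMCC1 and PFKFB3 values lay above all 8 pooled low-dose libraries, and with 1 library no test was made.

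Genes of energy metabolism and protein turnover depended on the vehicle libraries. Mitochondrially encoded genes were 11 of 13 higher, with a median log2 fold change of 0.437, but 4 were higher without vehicle replicate 2, 3 without vehicle replicate 1 and 7 without Palmul-tang low replicate 1 and Sibjeondaebo-tang low replicate 3. MT-CO1, a subunit of cytochrome oxidase, lay at 23080 to 28500 CPM in low-dose libraries, against 19480, 18230 and 21270 CPM in vehicle libraries (0.40 ± 0.0866). MT-ATP8 lay at 873 to 1788 CPM, against 328 to 705 CPM in vehicle libraries (0.93 ± 0.292; edgeR adjusted p = 0.0233). Its reading frame overlaps MT-ATP6, and the edgeR adjusted p was 0.14 without vehicle replicate 1. Mitochondrial transcripts took 14.61% to 18.39% of counts in low-dose libraries and 12.41% to 14.52% in vehicle libraries, so the groups just separated.

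Nuclear genes of the respiratory chain went the other way, 1 of 31 higher and 15 lower. UQCRQ, of complex III, lay at 35.1 to 47.1 CPM in low-dose libraries, against 62.6, 59.5 and 56.5 CPM in vehicle libraries (-0.60 ± 0.071; edgeR adjusted p = 1.23e-06). Cytosolic ribosomal protein genes were 1 of 39 higher and 13 lower, and proteasome genes 1 of 27 higher and 12 lower. Without vehicle replicate 2 the lower members numbered 7, 7 and 6 in these 3 lists. In Samul-tang low against vehicle, 4 respiratory chain, 0 ribosomal and 0 proteasome genes were lower, against 4.79% of all tested genes, and edgeR's test among the formulas called 0 genes, against 2 by DESeq2.

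YAP and SRF targets were 2 of 17 higher and 7 lower, with 6 to 7 lower across the alternatives. ACTB, cytoplasmic actin, lay at 2196 to 2452 CPM in low-dose libraries, against 2899, 2887 and 2639 CPM in vehicle libraries (-0.27 ± 0.0391), and AMOTL2, a feedback inhibitor of YAP, at 13.9 to 16.2 CPM, against 19.9, 21.0 and 20.6 CPM (-0.42 ± 0.06). Beside 14.6% higher and 15.1% lower among all tested genes stood p53 targets (1 of 18 higher, 5.56%, and 4 lower, 22.2%), interferon genes (2 of 13 and 2, 15.4% each), NF-kB targets (2 of 13, 15.4%, and 1, 7.69%), KRAB zinc fingers (5 of 28, 17.9%, and 3, 10.7%) and Wnt feedback genes (2 of 13 and 2, 15.4% each). Autophagy genes were 0 of 23 higher and 2 lower (8.7%). Without vehicle replicate 2 the interferon counts were 1 and 1, and the NF-kB list had 0 lower. Immediate early genes were 4 of 24 higher and 5 lower, and 2 lower without vehicle replicate 2. DUSP6, a phosphatase of ERK, rose by 0.34 ± 0.0418 and the factor JUND by 0.43 ± 0.0623, while KLF6 fell by 0.26 on the log2 scale. Circadian clock genes were 3 of 14 higher and 1 lower, iron handling genes 2 of 14 and 4, metallothioneins and zinc transporters 1 of 11 and 0, and histones 0 of 15 and 1. Corticosteroid-responsive genes were 0 of 8 higher and 2 lower, and 1 lower without Samul-tang low replicate 3, Palmul-tang low replicate 1 or 3, or vehicle replicate 2 or 3. ID genes and BMP targets were 3 of 8 higher and 3 lower, and 1 each without vehicle replicate 2. In the insulin and FOXO list, 3 of 12 were higher and 4 lower, with CITED2 (0.44 ± 0.0638) on one side and ARRDC4 (-0.44 ± 0.0863) and KLF15 (-0.41 ± 0.0875) on the other.

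Several genes annotated as noncoding had steeply lower counts in low-dose libraries. ENSG00000280800, a lincRNA annotated at chromosome 21, 8210384 to 8211306 (GRCh38), chosen after its values were seen, lay at 53.04 to 85.1 CPM with a median of 66.7 in low-dose libraries, against 878, 1158 and 852 CPM in vehicle libraries. The groups were more than an order of magnitude apart, with a log2 fold change of -3.85 ± 0.14 (edgeR adjusted p = 2.62e-12). ENSG00000280614 and ENSG00000281181 had its CPM in every low-dose library. These are near-identical copies that share reads, which leaves each level uncertain. The copies are annotated on the same chromosome and strand, at 8393419 to 8394341 and 8437629 to 8438551. The lincRNA label comes from the annotation alone, and which RNA the reads came from was not tested. A part of library preparation in this difference was not tested either. The values therefore do not show that a lincRNA was regulated. At high dose ENSG00000280800 differed from low dose by 0.08 on the log2 scale (edgeR adjusted p = 0.664).

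The signal recognition particle RNA gene RN7SL2 lay at 2.44 to 16.4 CPM with a median of 4.63 in low-dose libraries, against 16.6, 31.0 and 21.6 CPM in vehicle libraries (-2.10 ± 0.504; edgeR adjusted p = 0.00443). The highest low-dose value, in Samul-tang low replicate 2, almost met the lowest vehicle value. Its copy RN7SL1 (-1.58 ± 0.388) had an adjusted p of 0.0549 in edgeR without vehicle replicate 2. Together the copies summed to 5.73 to 27.6 CPM in low-dose libraries, against 28.5, 49.0 and 33.7 CPM in vehicle libraries. RPPH1, the RNA of ribonuclease P, lay at 0.118 to 0.511 CPM, against 1.17, 1.02 and 0.596 CPM in vehicle libraries, and RMRP at 0 to 0.112 CPM, against 0.550, 0.608 and 0.335 CPM. ZACN, a gene that overlaps its neighbours and was chosen after its values were seen, lay at 0 to 0.653 CPM, against 1.80, 10.8 and 5.47 CPM in vehicle libraries.

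MALAT1, a long RNA kept in nuclear speckles (chromosome 11, 65497688 to 65506516, plus strand), lay at 243 to 306 CPM with a median of 268 in low-dose libraries, against 403, 390 and 426 CPM in vehicle libraries (-0.60 ± 0.0486; edgeR adjusted p = 2.71e-10). Over all tested genes, 14.6% were higher and 15.1% lower. Of the 7 nuclear-retained long RNAs tested, 1 was higher (14.3%) and 2 were lower (28.6%), and 0 and 1 without vehicle replicate 2. The higher one was TUG1, at 192.5 to 209.6 CPM in low-dose libraries, against 189.3, 167.6 and 181.8 CPM in vehicle libraries (0.15 ± 0.0409; edgeR adjusted p = 0.00478), and its edgeR adjusted p was 0.0787 without vehicle replicate 2. NEAT1, of paraspeckles, lay at 255 to 298 CPM, against 294, 301 and 313 CPM, with overlap, and its adjusted p of 0.0176 became 0.0698 without vehicle replicate 2 and 0.117 without vehicle replicate 3, all in edgeR. Host genes of small nucleolar RNAs were 0 of 13 higher and 7 lower (53.8%), and 3 lower without vehicle replicate 2. SNHG16 lay at 118 to 128 CPM in low-dose libraries, against 171, 163 and 170 CPM in vehicle libraries (-0.42 ± 0.0329; edgeR adjusted p = 1.15e-10). Of 12821 coding genes, 2121 were higher (16.5%) and 2125 lower (16.6%), near the shares of all tested genes.

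**Figure D5:**
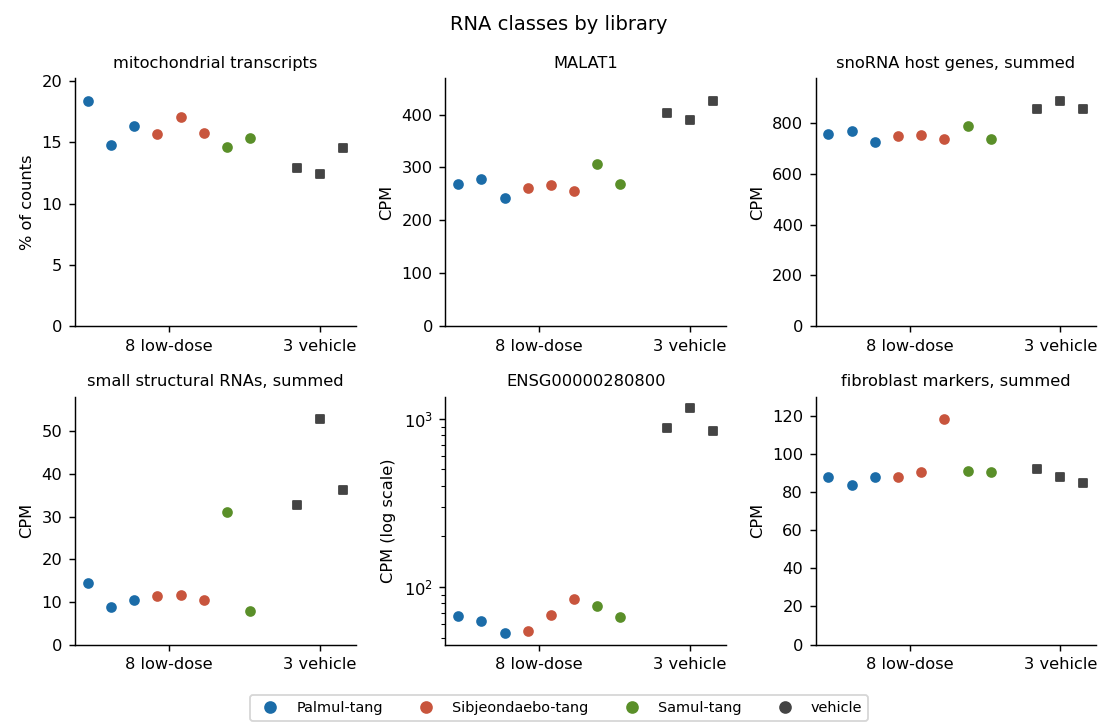
6 measures by library, with the 8 low-dose libraries (circles) left of the 3 vehicle libraries (squares) and the y axis in % of counts or CPM (log scale for ENSG00000280800). MALAT1 and the snoRNA host genes separate the groups, Samul-tang low replicate 2 stands out for small structural RNAs at 30.96 CPM, and Sibjeondaebo-tang low replicate 3 for fibroblast markers at 118.1 CPM.

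The summed levels of small structural RNAs, snoRNA host genes and nuclear-retained long RNAs each separated all 8 low-dose libraries from all 3 vehicle libraries. The coding genes were compared across the same split. Summed small structural RNAs were at 7.876 to 30.96 CPM in low-dose and 32.78 to 52.77 CPM in vehicle libraries, and summed snoRNA host genes at 725.1 to 790.5 CPM and 853.9 to 887.5 CPM. Their part in the differences of the coding genes was not tested. Of 16 fibroblast markers, 4 were tested, TWIST1 was at 0 in all 11 libraries and 7 stayed under 10 counts. Their summed level was 83.78 to 118.1 CPM in low-dose and 84.62 to 92.07 CPM in vehicle libraries. COL1A1 was at 8.29 CPM in Sibjeondaebo-tang low replicate 3 and at 0.140 to 0.513 CPM in the other low-dose libraries, against 0.183, 0.221 and 0.372 CPM in vehicle libraries, and was not called. Of 10 leukocyte markers 4 were tested, CD3E and MS4A1 were at 0, and the summed level of 1358 to 1559 CPM in low-dose and 1225 to 1342 CPM in vehicle libraries was nearly all LYZ (0.18 ± 0.0529). Of 8 endothelial markers 4 were tested, EMCN and TEK were at 0, and the sums were 7.44 to 9.20 CPM in low-dose and 7.38 to 7.599 CPM in vehicle libraries.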

How the data were processed

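The authors deposited expected counts per gene (60675 rows) from stranded paired-end RNA sequencing of HepG2. A further 240 columns carry no name of a sample analysed here, and were left out. Per the submitters' processing notes, RSEM 1.3.3, STAR 2.7.3a, FastQC 0.11.9 and Trim Galore 0.6.5 were used, and hg38 and GRCh38 are named as builds. No source used here gives the annotation release. RSEM divides reads among near-identical genes by estimate. Depth per library is given in the report; its range sets the precision of low counts.

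Expected counts were rounded. Genes were kept by filterByExpr (minimum count 10, total 15), and edgeR 4.0.16 (R 4.3.3) with TMM factors fitted 27 libraries of 10 groups (quasi-likelihood, robust, 17 residual degrees of freedom). The pooled contrast weighted the 8 low-dose libraries equally. Tests were two-sided, and p-values were adjusted over every gene tested (Benjamini-Hochberg). Each SE was derived from the log2 fold change and the F statistic. Gene lists (812 of 815 symbols matched) were counted, not tested. Named genes were up to 12 each way by fold change (mean log2 CPM of 2 or more, groups not overlapping, no clone-like symbol), up to 4 called members per list, 8 genes by the formula test and 9 fixed genes; other list members are given as examples. The members, lists and rules were chosen with earlier results of these data known. Positions are from GENCODE 29. The scripts were tested on simulated data. Replicates of a group differed by 2.925 to 17.19 times counting noise per gene, so no pair matched within sampling noise. The alternatives were other weights, DESeq2 1.42.0, median-ratio factors, no filter, the 11 libraries alone, a replicate block, a GC and length offset, and each library left out.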

Additional observations from a re-analysis of the deposited data

Results flagged for a closer look

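In 150 groups of 8 low-dose libraries (1 per gene or summed measure), 17 had 1 library far from the other 7 by Dixon's criterion; chance gives about 1 in 20. Palmul-tang low replicate 1 was the far library for MT-ATP8, at 1788 CPM with the next at 1042, for MANF at 124 CPM (next 111.9), for SLC27A5 at 6.41 CPM (next 5.503), for APOH at 2593 CPM (next 2880) and for SNHG16 at 118.5 CPM (next 124.6). Samul-tang low replicate 2 was the far library for RN7SL2 at 16.37 CPM (next 6.643), RN7SL1 at 11.22 CPM (next 5.203) and the summed small structural RNAs at 30.96 CPM (next 14.41). It was also far for CCNB1 at 111.4 CPM (next 101.9), KLF6 at 89.25 CPM (next 86.05), ATP5F1A at 391 CPM (next 351.7) and AEN at 90.52 CPM (next 84.56), in each case on the side of the vehicle libraries. Palmul-tang low replicate 3 was far for AHRR at 0.325 CPM (next 0.4744) and CITED2 at 48.96 CPM (next 41.93), and Palmul-tang low replicate 2 for AMOTL2 at 13.89 CPM (next 15.09). Sibjeondaebo-tang low replicate 3 had COL1A1 at 8.286 CPM (next 0.5125) and, with it, the summed fibroblast markers at 118.1 CPM (next 90.83).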

How the results depend on the processing

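The 134 called genes among 141 named kept their direction under all 21 alternatives. Of these, 19 lost the call under at least 1 alternative (39 of 2961 values), 14 of them without vehicle replicate 2, and 4 uncalled genes (UBD, AKR1C3, NQO1 and COL1A1) gained it. For all low doses against vehicle, leaving out 1 library gave 3158 to 4871 called genes, and the other alternatives 4175 to 5470. For Palmul-tang low against vehicle the range without 1 library was 2392 to 3695, for Sibjeondaebo-tang low against vehicle 2284 to 3715, and for Samul-tang low against vehicle 604 to 1800. The difference among the 3 low-dose formulas gave 255 genes with no filter on low counts, 4 with only the 11 libraries, 2 by DESeq2 and 0 to 1 without 1 library. Palmul-tang and Sibjeondaebo-tang low against Samul-tang low gave 197, 4, 4 and 0 to 1 under the same alternatives. Sibjeondaebo-tang low against Palmul-tang low gave 72 with no filter. The unfiltered genes include many with few reads; the cause was not tested.

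Same-numbered libraries of different groups had correlations of -0.324 to 0.235, and differently numbered ones -0.302 to 0.303. These are correlations of deviations from group means, which in such small groups are forced to oppose each other. They therefore cannot decide whether the numbers pair libraries. With the replicate number as a block, all low doses against vehicle gave 4806 genes, Palmul-tang low against vehicle 3870, Sibjeondaebo-tang low against vehicle 3891, Samul-tang low against vehicle 1776 and all high doses against all low doses 4156, and the 3 comparisons among formulas 0.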
